A study of Mus musculus with 16 samples.

Results

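Clusters of crosslinked RNA that lie in long noncoding genes of mouse hepatocytes, apart from Neat1 and 5 other genes, are described here. A cluster is a region of piled-up reads with a log2 fold over input and a −log10 p, both of them values the authors deposited for each cluster. A cluster was taken when its midpoint lay, on the same strand, in a GENCODE M21 gene of type lincRNA, antisense, processed transcript, sense intronic or bidirectional promoter lncRNA. Midpoints inside a protein-coding gene on that strand were left out (10490 clusters), as were those in Neat1, Malat1, Airn, Dleu2, Lncpint and 2700054A10Rik (4604 clusters). The rule used position and no measured value. It took 15287 of 1331383 clusters (1.15%), in 614 genes, of which 4357 had the midpoint in an exon and 10930 in an intron.

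The study immunoprecipitated endogenous PGC-1α from primary hepatocytes of C57BL/6J mice after crosslinking with ultraviolet light (254 nm, 400 mJ/cm2) and sequenced the bound RNA by single-end eCLIP, which reads crosslinked RNA against an input. Control cells were untreated and treated cells received 200 nM glucagon for 3 h; the protocol gives a high-glucose medium and then a night in starvation medium for the cultures. Each treatment has a lower and an upper band with 2 replicates, which makes 8 immunoprecipitated libraries in 4 groups. What the bands are is not in the labels. They also do not tell whether replicates come from different cultures or mice, so a p-value here covers the spread between libraries alone, and that spread may be technical. Values for 8 libraries are given in 1 order throughout: control lower band 1 and 2, control upper band 1 and 2, glucagon lower band 1 and 2, glucagon upper band 1 and 2.

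Long noncoding RNAs are transcribed and usually spliced like messenger RNAs, but most are not translated; many stay in the nucleus, and some start back to back with a protein-coding gene or run antisense to one. Others are hosts that are cut to release small nucleolar RNAs or microRNAs from their introns. PGC-1α is a transcriptional coactivator of the fasting programme of the liver whose C-terminal part carries an arginine-serine stretch and an RNA recognition motif, and glucagon is the hormone that raises it in hepatocytes.

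The exonic sequences enriched in the most libraries are shown first, 1 per gene, because they are the exonic stretches with the most repeated signal. An enriched cluster had a log2 fold of at least 3 and a −log10 p of at least 3. Each sequence is the exonic part of 1 enriched cluster, read 5′ to 3′ from the GENCODE M21 transcripts (mm10) with T for U. Capitals mark the bases that enriched clusters covered in the most libraries of that gene.
Gt(ROSA)26Sor, chr6:113077068-113077136, minus strand: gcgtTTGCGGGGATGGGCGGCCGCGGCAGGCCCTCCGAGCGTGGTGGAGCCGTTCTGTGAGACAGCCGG
2900052L18Rik, chr11:120230481-120230597, minus strand: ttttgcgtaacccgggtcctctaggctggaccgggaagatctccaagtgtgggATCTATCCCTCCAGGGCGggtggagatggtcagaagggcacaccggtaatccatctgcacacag
5031425E22Rik, chr5:23432879-23432988, minus strand: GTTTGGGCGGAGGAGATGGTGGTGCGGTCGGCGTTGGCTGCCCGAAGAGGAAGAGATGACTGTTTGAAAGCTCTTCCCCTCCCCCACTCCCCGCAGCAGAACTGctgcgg
Gm27003, chr2:126675966-126676047, plus strand: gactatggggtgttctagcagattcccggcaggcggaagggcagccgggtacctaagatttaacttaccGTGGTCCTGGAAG
N4bp2os, chr5:65763336-65763538, minus strand: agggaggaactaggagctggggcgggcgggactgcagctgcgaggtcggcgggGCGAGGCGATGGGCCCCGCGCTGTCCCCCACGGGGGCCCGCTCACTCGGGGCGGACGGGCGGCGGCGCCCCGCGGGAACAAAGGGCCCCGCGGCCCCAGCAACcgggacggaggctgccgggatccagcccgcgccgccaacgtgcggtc
Gm13594, chr2:65239008-65239051, plus strand: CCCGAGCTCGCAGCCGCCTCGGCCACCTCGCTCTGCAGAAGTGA

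The capitals were covered by enriched clusters of 6 libraries in Gt(ROSA)26Sor, 5 in 2900052L18Rik, 4 in 5031425E22Rik and 3 in each of Gm27003, N4bp2os and Gm13594. The Gt(ROSA)26Sor and Gm27003 stretches both end at the 3′ end of an exon, and the clusters they come from run on into the intron. In Gm27003 only 1 of the 3 enriched clusters at the locus had its midpoint in the exon. G and C made up 73.9% of the Gt(ROSA)26Sor stretch, 79.3% in N4bp2os, 70.5% in Gm13594, 62.7% in 5031425E22Rik, 58.1% in 2900052L18Rik and 56.1% in Gm27003. Among exonic clusters of at least 20 nt that could be read from transcripts, enriched ones had the higher mean G and C content in 7 of 8 libraries. The median of these enriched clusters was 62.0% over 50 clusters, against 52.2% over all 2798 readable exonic clusters of at least 20 nt. The exception was glucagon upper band 1, at 53.5% for 3 enriched clusters against 54.7% for the others. Some libraries had only 2 such clusters, and an exon enriched in several libraries was counted once in each, so these are descriptions. A set of 4 short motifs were looked for on the transcript strand of clusters of at least 20 nt. The splice donor letters GTAAG stood in 6.0% of 50 enriched exonic clusters and 3.53% of 2748 others, and TGTGTG in 4.0% and 4.62%. The run TTTTT was in 0 enriched clusters and 3.42% of others, and GAAGAA in 0 and 2.07%. Ribosomal repeat genes and clusters on small RNAs, described below, were not left out of these G and C contents and motif shares. In the whole set none of the 1066 clusters in those genes and 3 of the 698 on small RNAs were enriched. Their part in the differences was not tested. Intronic sequence was not used here.

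Of the 15287 clusters, 347 (2.27%) were enriched, beside 2.7% of all clusters of the series. They comprised 75 exonic and 272 intronic clusters and lay in 55 of the 614 genes, while 25.4% of all protein-coding and long noncoding genes with a cluster had an enriched one. By library the enriched share was 3.30%, 2.80%, 1.31%, 1.67%, 4.51%, 1.31%, 3.04% and 3.27%. The exact 95% interval (Clopper-Pearson, counting error only) ran from 2.60% to 7.22% in the smallest library, glucagon lower band 1, and from 2.57% to 4.10% in glucagon upper band 2. Read depth is unknown; that smallest library had 26279 clusters in all and the others 97629 to 260814. The share was 2.65% ± 1.13 (SD, n = 8 libraries) against 2.89% ± 0.79 for all other clusters. The difference of −0.24 percentage points was not larger than the spread between libraries (exact two-sided sign-flip permutation test over 256 assignments, p = 0.25).

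Pvt1, with 71, and Gt(ROSA)26Sor, with 64, supplied 135 of the 347 enriched clusters (38.9%). They were the 2 genes with an enriched cluster in all 8 libraries. Pvt1 also had the most clusters of any gene in the set, while Gt(ROSA)26Sor had 82. Without Gt(ROSA)26Sor the difference from other clusters grew to −0.69 percentage points (exact sign-flip permutation p = 0.0156), and leaving out a gene for its enriched clusters lowers the share by construction. Without glucagon lower band 1 it was −0.39 (exact permutation p = 0.0469). Of the other 53 genes, 17 had a single enriched cluster.

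Gt(ROSA)26Sor is the antisense gene behind the widely used Rosa26 transgene locus, a noncoding transcript of unknown function. It spans chr6:113067428-113077333 on the minus strand, starts 32 nt from the start of Setd5, which points the other way, and overlaps Thumpd3 on the opposite strand. The gene held 82 clusters, and the number enriched was 9 of 10, 8 of 10, 11 of 13, 11 of 13, 3 of 8, 6 of 9, 4 of 7 and 12 of 12. In every library at least 3 clusters were enriched, so neither treatment nor band stood apart by presence. All 64 lay 230 to 1330 nt from the 5′ end. The first exon ends 265 nt from the 5′ end, and 6 of the 64 had the midpoint in it. The other 58 lay in the start of the first intron, which is 5632 nt long. Within the same stretch 7 clusters were not enriched. Neither were the 2 clusters before it, at 224 and 228 nt, nor the 9 beyond it.

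The enriched clusters of the gene merged into 6 loci. The strongest repeated locus, at chr6:113076811-113077047, began just past the first exon and had enriched clusters in 8 of 8 libraries. Its log2 fold, taking the highest cluster in each library, was 4.43, 3.52, 4.74, 4.26, 5.93, 5.30, 3.21 and 4.79. Control and glucagon values overlapped (4.24 ± 0.52 against 4.81 ± 1.16, SD, n = 4). The next locus, chr6:113076448-113076752, was also enriched in all 8 libraries, with a log2 fold of 3.07 to 4.56. The locus at the end of the first exon, whose sequence is shown above, was at 3.93, 5.33, 3.70, 4.89, 2.98, 3.11, 2.05 and 4.44. There 4 of 4 control libraries and 2 of 4 glucagon libraries passed the enrichment threshold; the groups overlapped. The folds are ratios within each library and do not give an amount of RNA.

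**Figure D1:**
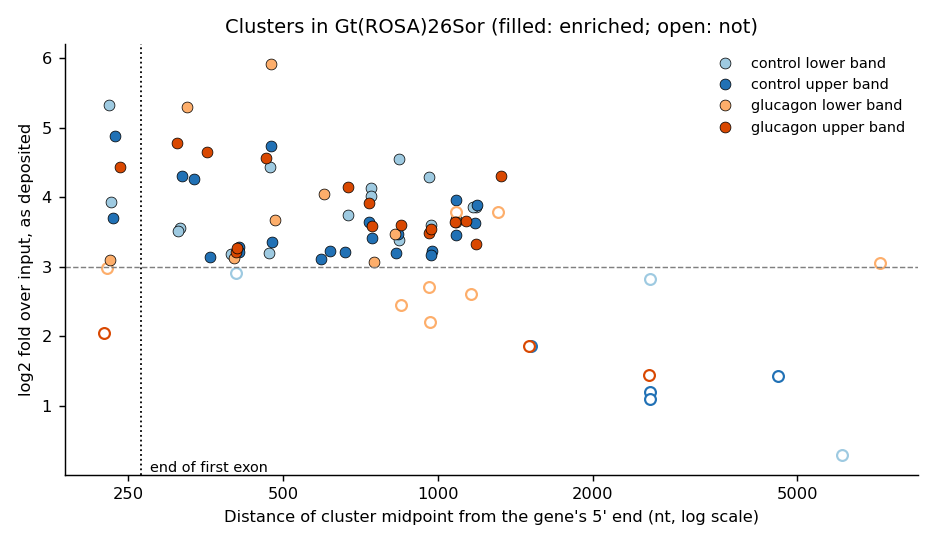
Deposited log2 fold over input (vertical axis) of the 82 clusters in Gt(ROSA)26Sor against the distance of the midpoint from the gene's 5′ end (log axis, nt), coloured by group. Filled points are the 64 enriched clusters, all between 230 and 1330 nt; open points are not enriched, the dashed line marks a log2 fold of 3 and the dotted line the end of the first exon at 265 nt.

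Pvt1, a long noncoding RNA gene downstream of Myc that is often amplified together with it in tumours, covers 340111 nt at chr15:62037986-62378096 on the plus strand. It had the most clusters of any gene in the set, 2666, or 369, 373, 457, 520, 40, 330, 217 and 360 by library. The smallest library had the fewest and the largest library the most. As a share of the clusters in long noncoding genes Pvt1 supplied 23.4%, 18.3%, 15.3%, 16.1%, 11.3%, 18.1%, 20.6% and 16.1%. Per 100000 clusters of the library it had 219 ± 40.03 in control and 181 ± 29.6 with glucagon (SD, n = 4), and the groups overlapped. Of its 2666 clusters 71 were enriched, a share near the 2.7% of all clusters of the series. The enriched clusters numbered 13, 13, 7, 11, 3, 4, 7 and 13, and none of the 71 was exonic. Unlike in Gt(ROSA)26Sor they were spread over the gene, with 60 of 71 more than 50000 nt from the 5′ end. They formed 62 loci, of which 57 were enriched in a single library. The exception with the most libraries, chr15:62125804-62125959, was enriched in 5 libraries and had a cluster in 8, at log2 folds of 3.24, 2.85, 3.30, 3.13, 2.73, 3.46, 3.18 and 2.61.

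Of the genes with 10 to 15 enriched clusters, 5 are described. Gm26935, antisense to Gapdhs, had 15, all intronic; its locus chr7:30737964-30738175 had a cluster in 8 libraries, enriched in 5, at log2 folds of 2.32 to 4.82. The lincRNA 5031425E22Rik, whose 5′ end is 172 nt from that of the histone methyltransferase gene Kmt2e, had 45 clusters, all exonic, and 15 enriched. Those 15 were counted as 2, 2, 0, 4, 0, 2, 1 and 4 by library and lay 651 to 1397 nt from the 5′ end. Gm17435, antisense to the Mediator subunit gene Med26, had 13, of which 1 was exonic. The lincRNA Gm20732 also had 13, all within 817 nt of its 5′ end. The processed transcript 2900052L18Rik had 10 of 32, 9 of them exonic. In glucagon lower band 1 none of these 5 genes had an enriched cluster, and none had more than 4 clusters there.

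**Figure D2:**
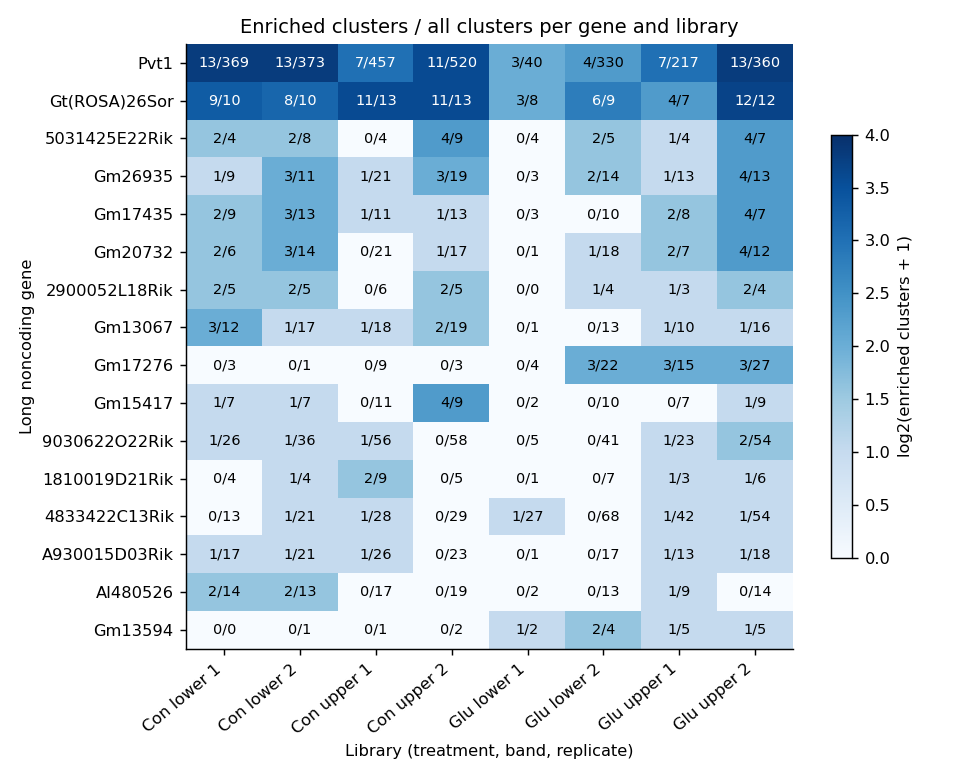
Enriched clusters over all clusters (written in each cell) for 16 of the genes with most enriched clusters, by library; darker blue means more enriched clusters on a log2(n + 1) scale. Pvt1 and Gt(ROSA)26Sor have enriched clusters in all 8 columns, and Gm17276 has them in 3 glucagon columns and in no control column.

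By annotation class, antisense genes had 161 enriched of 3954 clusters (4.07%), lincRNA genes 149 of 7447 (2.00%) and processed transcripts 36 of 3600 (1.0%). Bidirectional promoter lncRNAs had 1 of 286 (0.35%), and no cluster was in a sense intronic gene. Without Gt(ROSA)26Sor the antisense share was 2.51%. Genes whose 5′ end lay within 1000 nt of the start of a protein-coding gene on the other strand had 3.17% enriched clusters against 1.93% in the rest; without Gt(ROSA)26Sor these were 1.67% and 1.93%. These class shares pool libraries and were not tested.

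The first planned comparison asked whether crosslinking favoured exons or introns. The exonic clusters were enriched less often than the intronic ones, 1.86% ± 0.81 against 3.18% ± 1.76 (SD, n = 8 libraries), a difference of −1.32 percentage points. The exonic share was lower in 7 of 8 libraries (exact sign-flip permutation test, p = 0.0234, Benjamini-Hochberg adjusted over 4 comparisons 0.0313). Exonic shares were 2.75%, 2.47%, 0.58%, 1.55%, 2.97%, 1.53%, 1.26% and 1.81%, and intronic shares 3.53%, 2.93%, 1.53%, 1.71%, 6.54%, 1.21%, 4.12% and 3.89%. The exception was glucagon lower band 2. The direction depended on which exons were counted. Without 2 genes that overlap ribosomal RNA repeats, Gm42418 and Gm26917, and without clusters on annotated small RNAs, the exonic share was 4.78%, 3.81%, 0.86%, 2.13%, 11.1%, 1.66%, 2.49% and 2.73%. The exon-minus-intron difference was then +0.42 percentage points (exact permutation p = 0.602). Without Gt(ROSA)26Sor it was −0.76 (exact permutation p = 0.0859).

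Gm42418 and Gm26917 held 1066 clusters, all exonic and none enriched, and these made up 8.06%, 5.76%, 5.40%, 4.52%, 26.8%, 7.002%, 13.3% and 6.81% of the clusters by library. Another 698 clusters, in 40 genes, lay on small RNAs, and 3 of them were enriched. Ribosomal and small nucleolar RNAs are among the most abundant RNAs of a cell.

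Against protein-coding genes the 2 parts of long noncoding genes went in opposite directions. Their introns were enriched less often than protein-coding introns, 3.18% ± 1.76 against 3.87% ± 1.5 (SD, n = 8), lower in 8 of 8 libraries (exact sign-flip permutation p = 0.00781, the smallest 256 assignments can give, adjusted 0.0313). Their exons were enriched more often than protein-coding exons, 1.86% ± 0.81 against 0.85% ± 0.23, higher in 7 of 8 libraries (exact permutation p = 0.0156, adjusted 0.0313). Both directions were kept with a log2 fold of at least 4 and with a −log10 p of at least 5, where neither difference passed the threshold.

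**Figure D3:**
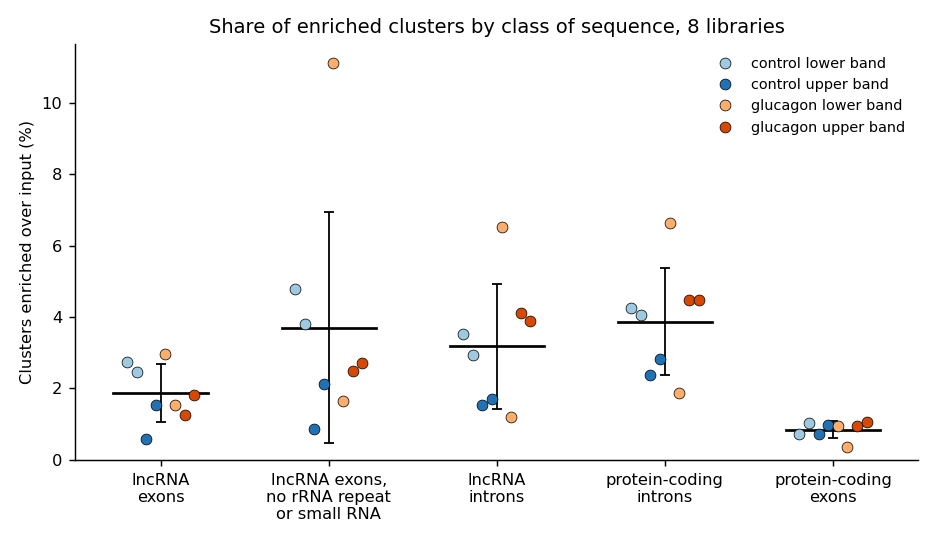
Share of clusters enriched over input (vertical axis, percent) in exons and introns of long noncoding and protein-coding genes; each point is 1 of 8 libraries, coloured by group, and bars give the mean and SD. Long noncoding exons average 1.86% and introns 3.18%, and protein-coding introns and exons 3.87% and 0.85%; the second column shows the exonic shares without ribosomal repeat genes and small RNAs.

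Enriched clusters lay nearer to the 5′ ends of their genes than other clusters did. In this comparison, added after the data had been seen, 38.1% ± 5.94 of enriched clusters (SD, n = 8) were within 1000 nt of the 5′ end, against 18.6% ± 3.68 of the others. The share was higher in 8 of 8 libraries (exact sign-flip permutation p = 0.00781, adjusted over 3 measures 0.0234). Without Gt(ROSA)26Sor it was 27.6% ± 4.34 against 18.5% ± 3.62, and without Pvt1 as well 36.5% ± 5.56 against 22.1% ± 3.77, each higher in 8 of 8 libraries with the same p. The enriched share was 2.39% of clusters in the first 250 nt, 5.88% from 250 to 500 nt and 5.02% from 500 to 1000 nt. It then fell to 3.24% up to 2000 nt and to 1.81%, 1.29% and 0.93% in the next bins, up to 50000 nt. Beyond 50000 nt it was 1.91%, where 60 of 64 enriched clusters were in Pvt1. Enriched clusters were also longer, with a median of 68 nt against 41 nt, and a longer cluster can hold more reads. The part of cluster length in these shares was not tested. Among intronic clusters, 33.0% of enriched and 20.6% of other ones were within 500 nt of an exon (exact permutation p = 0.0313, adjusted 0.0469). The third measure, clusters exonic or within 500 nt of an exon, was 48.8% against 46.6% (exact permutation p = 0.641). The intronic difference was 24.3% against 20.7% without Gt(ROSA)26Sor (exact permutation p = 0.492).

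**Figure D4:**
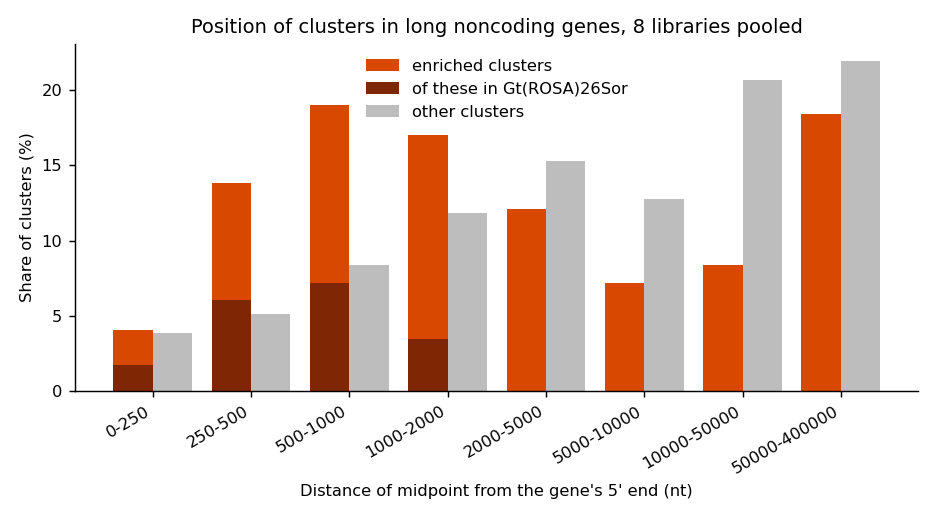
Share of enriched clusters (orange, with the part in Gt(ROSA)26Sor in brown) and of other clusters (grey) by distance of the midpoint from the gene's 5′ end, 8 libraries pooled; bins are of unequal width. From 250 to 1000 nt the orange bars stand above the grey ones, at 13.8% against 5.14% and 19.02% against 8.36%.

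The second question was what changed with glucagon. The exonic share of the clusters was 29.9%, 27.9%, 23.3% and 24.0% in control libraries and 56.9%, 32.1%, 37.8% and 29.7% with glucagon, 12.9 percentage points higher on average within bands. Of the 36 assignments of labels within bands only its mirror was as extreme (exact two-sided permutation p = 0.0556, the smallest this design can give; adjusted over 3 measures 0.167), so the design cannot pass 0.05. Across bands the groups came close but glucagon upper band 2 (29.7%) lay below control lower band 1 (29.9%). Without ribosomal repeat genes and small RNAs the shares were 20.01%, 20.2%, 17.02% and 18.8% in control and 27.6%, 22.8%, 23.8% and 22.1% with glucagon, and the groups did not overlap. The exonic share of clusters in protein-coding genes moved with it, at 37.0%, 32.3%, 25.1% and 22.7% in control and 57.0%, 36.8%, 36.5% and 28.01% with glucagon. Leaving out glucagon lower band 1 brought the difference to 6.65 percentage points, and leaving out glucagon lower band 2 to 19.05. Control libraries held 132622, 178308, 240002 and 260814 clusters and glucagon libraries 26279, 188011, 97629 and 207718, and the smallest library had the highest exonic share. Glucagon lower band 2 had more clusters than both lower band controls and a higher exonic share than either. The part of library size in the result was not tested.

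The share of all clusters that lay in these genes was 1.202% ± 0.048 in control and 1.12% ± 0.16 with glucagon (SD, n = 4; exact permutation p = 0.5). The enriched share was 2.27% ± 0.94 and 3.03% ± 1.32 (exact permutation p = 0.5). In the upper band both glucagon libraries (3.04% and 3.27%) were above both control libraries (1.31% and 1.67%). In the lower band the glucagon libraries (4.51% and 1.31%) lay on either side of the controls (3.30% and 2.80%). All other clusters of the same libraries had this pattern too. Their upper band enriched shares were 2.06% and 2.51% in control and 3.37% and 3.66% with glucagon. In the lower band their glucagon shares also lay on either side of the controls. The pattern was therefore not particular to long noncoding genes. Between bands, upper minus lower, the share of clusters in these genes differed by −0.0045 percentage points, the exonic share by −8.03 and the enriched share by −0.66 (exact permutation p = 1.0, 0.222 and 0.556). None of these passed the threshold.

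The clusters per gene were compared with limma on log2(clusters per 100000 + 5), fitted over 6125 genes with a mean of at least 5 clusters per library. Of the 614 long noncoding genes 72 entered the test. With glucagon, 2 of the 72 rose, beside 1.42% of all genes tested, and 4 fell, beside 2.78%. The median log2 difference of the 72 was −0.15, against −0.12 over all 6125. Fold changes on this scale are smaller than those of the raw values for genes with few clusters. Clusters count regions, not RNA molecules, so less RNA and less crosslinking cannot be told apart.

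Gm17276, antisense to the receptor gene Notch3 at chr17:32113411-32141843, rose. It had 2.26, 0.56, 3.75 and 1.15 clusters per 100000 in control and 15.22, 11.70, 15.36 and 12.998 with glucagon. Every glucagon library was above every control library. The 15.22 of glucagon lower band 1, a library of 26279 clusters in all, rests on few clusters of the gene. The log2 difference was 1.46 (SE 0.22, limma adjusted p = 0.00463). Among the genes with no enriched cluster in control, Gm17276 had the most enriched clusters: 0, 0, 0 and 0 in control and 0, 3, 3 and 3 with glucagon. These are part of the clusters counted above, so they are not separate support. At its locus chr17:32114289-32114441 the log2 fold over input was 0.65 and 1.05 in the upper band controls. It was 3.05, 4.09, 3.86 and 2.41 with glucagon, and the lower band controls had no cluster there. The other locus of the gene enriched in 2 glucagon libraries was chr17:32122151-32122297. It had a cluster in 3 control libraries, none enriched, at log2 folds of 0.76 to 3.20. With glucagon only the upper band libraries had a cluster there, at 3.67 and 3.39.

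The antisense gene 4833422C13Rik at chr13:91701665-91741872 overlaps Acot12, which encodes an acetyl-CoA hydrolase of the liver, and Ssbp2. It had 9.80, 11.8, 11.7 and 11.1 clusters per 100000 in control, a narrow range, and 103, 36.2, 43.02 and 25.997 with glucagon. The log2 difference was 1.66 (SE 0.34, limma adjusted p = 0.0207). It passed the threshold in 8 of 13 alternatives, and its 5 losses came when any control library or glucagon upper band 1 was left out (adjusted p up to 0.107). The locus chr13:91728325-91728408 was enriched in 3 glucagon libraries and 1 control library, with log2 folds of 1.40, 4.07, 2.72 and 1.48 in control and 4.64, 2.05, 3.86 and 3.47 with glucagon.

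Among the genes that fell, Gm4117 at chr13:89739460-89887166, antisense to Vcan and Xrcc4, had 35, 46, 48 and 72 clusters in control and 1, 8, 9 and 11 with glucagon, or 24.9 ± 3.38 and 5.64 ± 2.46 per 100000 (SD, n = 4). The groups did not overlap, and the log2 difference was −1.51 (SE 0.23, limma adjusted p = 0.00554). The lincRNA gene Gm14005, at chr2:128178319-128502765, had 7, 5, 21 and 25 clusters in control and 0 in each of the 4 glucagon libraries. Over the group it was at least 12.4-fold lower, taking a floor of 3 clusters for the glucagon group (7.15 against 0.58 per 100000). Its limma adjusted p was 0.00961, and 0.0663 and 0.0601 without control upper band 1 and glucagon upper band 1. Without control upper band 2, or with a mean of at least 10 clusters, it had too few clusters to be tested. Gm14005 entered the test through the control libraries alone, so its fold and adjusted p values are descriptions and not separate support.

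The processed transcript 2210408F21Rik, at chr6:31220351-31337404, had 12.8, 26.9, 27.5 and 37.6 per 100000 in control and 3.81, 5.85, 1.02 and 12.04 with glucagon. Its log2 difference was −1.58 (limma adjusted p = 0.0307), and up to 0.135 when single libraries were left out. Trp53cor1, also called lincRNA-p21, is a p53-responsive transcript upstream of the cell cycle inhibitor gene Cdkn1a. It had 6.03, 10.1, 7.08 and 5.75 per 100000 in control and 0, 3.19, 1.02 and 1.93 with glucagon. The log2 difference was −0.92 (limma adjusted p = 0.0472, lost in 7 of 12 alternatives). Trp53cor1 had few clusters with glucagon and entered the test through its control libraries, so its adjusted p is a description as well. Its locus chr17:29071657-29071775 had a cluster in all 4 control libraries (log2 folds of 3.40, 2.61, 3.03 and 4.37) and in no glucagon library. Of the 4 genes that fell, 3 had no enriched cluster in any library; Trp53cor1 had 2.

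The number of called genes rested on single libraries. It was 2 without control upper band 1 (1.53% of all genes tested) or 2 (1.45%), and 3 without control lower band 2 (1.64%) or glucagon upper band 1 (1.2%). It was 11 without glucagon lower band 1 (6.83%) and 20 without glucagon lower band 2 (17.5%), so the count over all genes moved too, from 4.2% with all libraries. With the replicate number as a block, 2 genes were called higher and 11 lower, beside 2.27% and 5.44% of all genes. Gm17276 and Gm4117 passed the threshold in all 13 alternatives run, though Gm17276 entered the main test through its glucagon libraries. Between bands limma called 0 of the 72 genes and 0 of all 6125, with 3 and 204 at an unadjusted p under 0.05. For the interaction of treatment and band it also called 0, with 0 and 26.

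**Figure D5:**
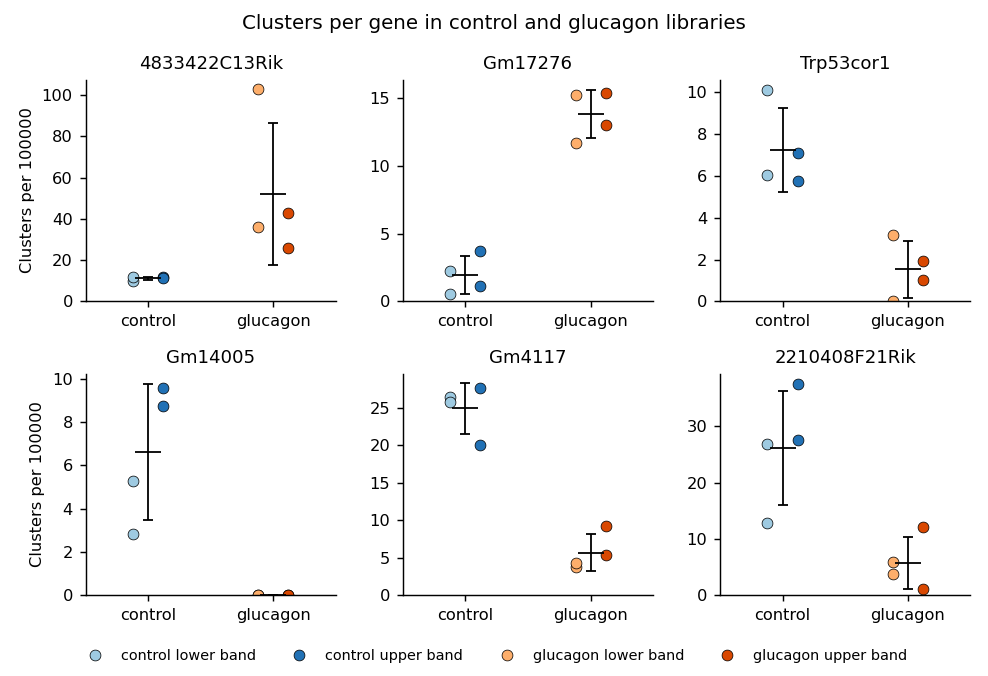
Clusters per 100000 clusters of the library (vertical axes, each from 0) for the 6 genes that limma called between control and glucagon; points are libraries coloured by group, bars give the mean and SD of 4 libraries. In each panel the 4 glucagon points lie on 1 side of the 4 control points; Gm14005 is at 0 in all glucagon libraries.

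Gm13594, which overlaps Cobll1 on the opposite strand, was too sparse for the test. It had 0, 1, 1 and 2 clusters in control and 2, 4, 5 and 5 with glucagon, and its 5 enriched clusters were 1, 2, 1 and 1 of the glucagon libraries. Its exonic locus, shown above, had log2 folds of 3.17, 3.50, 2.36 and 3.42 with glucagon and no cluster in a control library. N4bp2os went the other way: its locus was enriched in 3 control libraries (log2 folds of 4.14, 2.20, 4.61 and 3.19 over the 4) and in none with glucagon (1.43, 1.12 and 2.21 in the 3 with a cluster). These single loci were not tested. Of the 207 loci with an enriched cluster, 162 were enriched in 1 library, 45 in at least 2 and 14 in at least 4. Over all 19499 enriched loci of the series, 68.4% were enriched in 1 library, 31.6% in at least 2 and 8.57% in at least 4. Here these were 78.3%, 21.7% and 6.76%. Both treatments shared 27 (13.04%, beside 22.0% of all loci), while 105 were enriched in control libraries only (50.7%, beside 46.4%) and 75 in glucagon libraries only (36.2%, beside 31.5%). Of the loci of 1 treatment, 11 and 7 were enriched in at least 2 libraries, and the same count over all loci of the series was not made. These shares were not tested.

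Each group also has a list of reproducible peaks made by the authors. Peaks in these genes numbered 19 of 2206 in the control lower band, 32 of 3692 in the control upper band, 3 of 413 in the glucagon lower band and 22 of 2167 in the glucagon upper band. These are 0.86%, 0.87%, 0.73% and 1.02% of each list. The 76 peaks fell in 25 genes. Gt(ROSA)26Sor supplied 8, 11, 2 and 8 of them, Pvt1 3, 3, 0 and 1, and 2900052L18Rik 2, 2, 0 and 1. Gm26935 had 4, 5031425E22Rik and Gm17435 had 3, and Gm17276 had 2, both in the glucagon upper band. Of the 25 glucagon peaks, 14 (56.0%) overlapped a peak of the control list of the same band, beside 58.6% of all 2580 glucagon peaks. With an overlap of at least 0.5 of the shorter peak these were 11 (44.0%) and 56.1%.

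Of 70 names on 5 lists of known long noncoding genes, 29 had a cluster and 41 had none. Not every name was found in the annotation: 17 of 21 snoRNA hosts, 7 of 8 microRNA hosts and 19 of 20 chromatin and imprinting lncRNAs were. Of the 13 ribosomal repeat names 4 were found, and a name not found could not have a cluster. Of 21 snoRNA host genes, 15 had 581 clusters, 87.1% of them exonic and 422 on small RNAs; 2 clusters were enriched, 1 each in Gas5 and Snhg17. Gas5 held 131 clusters (107 on small RNAs), Snhg1 95 (95), Snhg12 56 (56) and Snhg17 55 (22). Of 8 microRNA hosts, Mir99ahg (163 clusters), Mir17hg (53) and Mirt1 (2) had clusters and none was enriched. Of 20 chromatin and imprinting lncRNAs 6 had clusters: Pvt1, Firre (144), Ftx (55), Tug1 (46), Jpx (41) and Nespas (17). Firre, Ftx and Jpx are X-linked genes studied in X-chromosome organisation or inactivation, and Nespas is the imprinted antisense transcript at Gnas. In this list of 20 only Pvt1 had enriched clusters. The list of liver genes is not reported here. Of 13 names listed as ribosomal repeat genes, the 2 described above had clusters. The limma fit tested 5, 2, 5 and 2 genes of the other lists, in this order, and called none.

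The libraries carried hepatocyte RNA: 8 of 8 hepatocyte markers had clusters, 317 to 652 per library in sum. Of 5 markers each, 1 Kupffer, 1 endothelial and 1 stellate gene had clusters, at 0 to 1, 0 to 1 and 0 to 4 per library. The cholangiocyte markers Sox9 and Spp1 had clusters, at 0 to 12 in sum, while Krt19, Krt7 and Epcam had none. No pair of libraries held identical clusters.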

How the data were processed

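The submitters' processing notes name cutadapt, STAR and the build mm10, without versions; the peak caller is not given in the sources used here. The 8 immunoprecipitated libraries each have a cluster file, and each group has 1 reproducible list. The 8 input libraries were not analysed here. Both values of a cluster are as the authors deposited them: a −log10 p of enrichment over input, capped at 400, and a log2 fold over input, identified from the values since the files have no header. Coordinates are 1-based on mm10.

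Clusters were placed by midpoint and strand in GENCODE M21, giving exons precedence over introns and then the shortest gene. Placement of 30381 clusters was checked with bedtools 2.31.1 and none differed. Neighbouring clusters of 1 library share reads, so libraries, not clusters, were the units. Shares were compared by exact two-sided sign flips over 8 libraries, or by exact permutation within bands or treatments. Clusters per gene were compared with limma 3.58.1 (R 4.3.3) with treatment and band as terms and Benjamini-Hochberg adjustment over 6125 genes at a threshold of 0.05. The fit was tested on simulated data. These are not read counts, so no count model was used. Other tools were Python 3.11.15, numpy 2.4.6, pandas 2.3.3 and scipy 1.17.1.

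The members and gene lists were chosen with earlier results of these data known. Genes were named by rule: those with most clusters, most enriched clusters, most listed peaks, a limma call, or most clusters in a fixed list. N4bp2os, Gm27003 and Gm13594 entered through the sequences shown. These came from the loci enriched in most libraries among those with an exonic enriched cluster. The planned sequence test around cluster midpoints was not run, since no genome sequence was used here. Depth could be judged only from the number of clusters. Results for a few genes that this rule takes are left out.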

Additional observations from a re-analysis of the deposited data

How the results depend on the processing

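The enriched share of long noncoding clusters minus that of other clusters, −0.24 percentage points, changed sign with a log2 fold of at least 2 (0.14) or 4 (0.016), without ribosomal repeat genes and small RNAs (0.50) and, chosen after seeing the data, with adjoining clusters joined (0.097). It passed the threshold without Gt(ROSA)26Sor (−0.69) and without Pvt1 too (−0.89), both also chosen after seeing the data, and ran from −0.39 to −0.15 with single libraries left out. Exon minus intron reversed to 0.42 without ribosomal repeats and small RNAs. It missed the threshold at a log2 fold of 4 (−0.67), with clusters of at least 20 nt (−1.15), joined clusters (−0.74), without Gt(ROSA)26Sor (−0.76) and without Pvt1 too (−0.46). Against protein-coding genes the intron difference was −0.18 at a −log10 p of 5 and −0.079 at a log2 fold of 4, and the exon difference 0.46 and 0.30, none past the threshold. The cause of these changes was not tested.

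At a log2 fold of 2, glucagon minus control of the enriched share was −0.047 and upper minus lower band 0.18. The band difference in the share of clusters, near 0, turned to 0.12 without ribosomal repeats and small RNAs, 0.051 with clusters of at least 20 nt, 0.0029 without Pvt1 and 0.046 with joined clusters. With single libraries left out it ran from −0.099 to 0.090, that of the enriched share from −1.46 to 0.14, and the glucagon difference in the share of clusters from −0.18 to 0.012 and in the enriched share from −0.037 to 1.56. The exonic share with glucagon stayed higher in all alternatives run, by 6.65 to 19.05 with single libraries left out.

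Limma called 2 to 20 genes with single libraries left out; at a log2 fold of 4, 16 listed peaks remained of 76. Same-numbered libraries deviated together (r = 0.16 to 0.61 over 6125 genes, 6 pairs of groups), but each group has only 2 numbers and the labels give them no meaning. In every group replicate 1 also had fewer clusters than replicate 2, so library size and replicate number cannot be told apart here. With the replicate number as a block, limma called 13 genes for glucagon (2 higher and 11 lower, with 7.71% of all genes called) and 0 for the band, and the exonic share had an exact permutation p of 0.125; no other call changed with the block. Read depth is unknown, and 72 of 614 genes had enough clusters to be tested singly.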

Other observations

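In RefSeq, 14 of the 614 genes are typed as protein-coding, among 428 that matched by symbol. They held 784 clusters and 5 enriched ones, all 5 in Zswim6, which had 378 clusters, 5 of them exonic. Of the 15287 clusters 0.43% overlapped a cluster of the same library on the opposite strand, as did 5 of the 347 enriched ones, so few had signal on both strands. A protein-coding gene lay opposite 13.4% of the clusters and 20.2% of the enriched ones. The smallest library, glucagon lower band 1, held the 2 clusters with a −log10 p at the cap of 400. Of the 614 genes, 113 had a single cluster over the 8 libraries and 75 had a cluster in each. The lincRNA gene 2610035D17Rik had 391 clusters, more than any gene but Pvt1 and Gm26917, of which 1 was exonic and 3 were enriched.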
